A study of Mus musculus with 34 samples.

Results

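Bone-marrow-derived macrophages that lack IL-10 were compared with wild-type macrophages after both had received LPS together with IL-10 for 180 min, so the comparison asks which expression differences remain when the missing cytokine is supplied. It rests on 4 of the 34 arrays of the series, chosen by their titles: 2 of wild-type and 2 of IL-10-/- cells, each with LPS at 100 ng/ml and IL-10 at 10 ng/ml. The other arrays hold resting cells and wild-type, IL-10-/- and IL-6-/- cells given LPS alone, with IL-10, or with IL-6 at 2 ng/ml, for 45 or 180 min. All stimulated cells had been differentiated from mouse bone marrow with the growth factor CSF-1 for 7 days. The labels name no strain, sex or age, do not describe the knockout allele, and call the arrays of a group biological replicates without naming the mice behind them. The p-values below therefore measure the spread between replicate arrays, pooled over the 16 groups of the fit and not taken from the 4 arrays alone. Without such labels, the lack of IL-10 cannot be told apart from any other difference between the wild-type and IL-10-/- mice. The genotype differences below are to be read with that limit. The groups follow the array titles. The separate treatment field names LPS and IL-10 for the wild-type arrays but LPS without IL-10 for the IL-10-/- arrays of the comparison.

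IL-10 is an anti-inflammatory cytokine that macrophages themselves release after LPS, the bacterial cell-wall lipid sensed by Toll-like receptors. It binds a receptor made of Il10ra and Il10rb, activates the transcription factor Stat3, lowers the expression of many inflammatory genes and raises that of genes such as Socs3, Bcl3, Il4ra and Il1rn. In wild-type cells given LPS alone this loop is closed by the cells' own IL-10, whereas in IL-10-/- cells the receptor and Stat3 are in place but the ligand is not.

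Expression was read on Affymetrix MG-U74Av2 arrays as MAS5 signal, a linear intensity that the authors had scaled to the same trimmed mean on every array. Of the probe sets, 8224 reached a signal of 200 in at least 2 arrays and were tested, standing for 6070 genes. Differences are IL-10-/- minus wild type, on a log2 scale of the signal plus 50, given with their standard error. On this scale the change of a gene with low signal is understated. A probe set is called where the adjusted p from limma over all 8224 was under 0.05. The markers of macrophages, 10 of 10 tested, had signals from 864 to 53270 in the 4 arrays, and their summed signal was 142987 and 146670 in wild type against 148831 and 139103 in IL-10-/-. Cd14 and Lyz2 made up most of that sum. Adgre1 (4592.5 and 3674 against 6337 and 6102), Itgam (2398 and 864 against 2485 and 2774) and Fcgr1 were higher in both IL-10-/- arrays. Csf1r (15612 and 20385 against 14659 and 14515) was lower in both, and the other markers overlapped. The share of all probe sets separated in this way was not counted, so this separation is no result about the markers. Wild-type replicate 2 stood somewhat apart: it correlated at 0.922 to 0.936 with the other LPS plus IL-10 arrays of 180 min, while the IL-10-/- replicates correlated with each other at 0.96.

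With IL-10 supplied, the genotypes differed at 18 of 8224 probe sets, 0.219% of those tested, of which 10 were higher (0.122%) and 8 lower (0.0973%) in IL-10-/- cells. The lower ones were led by Ifi202b, Erdr1 and Gdpd3, and the higher ones by a Ctse probe set, Cdkn1c and Pam. With LPS alone the same genotype comparison called 236 probe sets, 2.87% of those tested, 83 higher (1.01%) and 153 lower (1.86%). The count with IL-10 depended on single arrays: it was 40 without wild-type replicate 1, 9 without wild-type replicate 2, 4 without IL-10-/- replicate 1 and 7 without IL-10-/- replicate 2. At an unadjusted p under 0.05, 534 probe sets passed with IL-10 and 1012 with LPS alone. In bulk RNA such as this, fewer cells of a kind and less RNA per cell cannot be told apart.

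Promoter sequences are shown for one gene on each side of this contrast, Ifi202b, whose difference remained with IL-10, and Bach1, which differed with LPS alone but was not called with IL-10. Each is the 250 bases before the annotated start in RefSeq's GRCm38.p6, 5′ to 3′ on the gene's strand. The capitals mark the match to the STAT-type motif TTCNNNGAA.
Ifi202b, chr1:173982845-173983094, minus strand: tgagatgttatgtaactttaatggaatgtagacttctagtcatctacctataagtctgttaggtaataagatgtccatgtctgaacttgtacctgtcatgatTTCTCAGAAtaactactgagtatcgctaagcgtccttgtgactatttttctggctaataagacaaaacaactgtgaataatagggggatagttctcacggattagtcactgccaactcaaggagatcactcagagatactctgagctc
Bach1, chr16:87698704-87698953, plus strand: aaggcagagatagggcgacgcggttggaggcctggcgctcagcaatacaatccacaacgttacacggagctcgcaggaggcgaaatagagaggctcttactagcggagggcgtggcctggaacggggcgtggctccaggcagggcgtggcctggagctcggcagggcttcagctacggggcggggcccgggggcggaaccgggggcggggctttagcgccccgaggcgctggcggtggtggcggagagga
Promoter windows running from 250 bases before to 50 after the start were used for 24 of 28 genes. The 28 were those called with IL-10 or with a called change between the conditions. No window was used for Ctse, Erdr1, Cdkn1c and Isoc1, which does not show that these genes lack a promoter entry. Several genes have more than 1 window, 33 in all. TTCNNNGAA reads the same on both strands, and 6 of the 33 windows (18.2%) held it, against 8.3% of all 32851 windows. The 6 belong to 4 genes (Ifi202b, Serpinb2, Ccl17 and Gab1), and the windows of Serpinb2 and those of Gab1 overlap. The interferon-type motif, GAAA repeated after any 2 bases, searched on both strands, was in 0 of the 33 and in 3.44% of all windows. In Ifi202b the match began 148 bases before the start, and no match was present in the Bach1 window. The matches are letters in a window and say nothing of binding.

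Ifi202b encodes an interferon-inducible protein of the p200 family. Its signal with LPS plus IL-10 was 7976 and 5686 in the wild-type arrays and 47 and 7.5 in the IL-10-/- arrays. The groups lay far apart, and both IL-10-/- values were below the signal of 200 used for the filter. The difference was -6.51 ± 0.30 (adjusted p from limma 4.85e-13); its size is set by the value added to such low signals, and it was -7.74 when 10 and -4.94 when 200 was added. With LPS alone the signals were 7380 and 7628 against 9.5 and 54.2, a difference of -6.58 ± 0.30, again with both knockout arrays below 200. The IL-6-/- cells, also with LPS plus IL-10, lay between the genotypes at 2713 and 1947. Ifi202b belongs to a family of similar genes, and a probe set whose platform entry names a pair of genes of chromosome 1, 161173_f_at, followed the same pattern. It gave 1899.6 and 1626 in wild type against 5 and 2.1 in IL-10-/-. Its difference was -5.08 ± 0.44 (adjusted p from limma 1.33e-07). Affymetrix names ending in f_at or s_at mark probe sets shared by similar transcripts, so these values cannot be tied to 1 gene. The same limit holds for the probe sets read below for Erdr1 (98525_f_at), Serpinb2 (92978_s_at) and St3gal5 (98596_s_at).

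Erdr1, named as an erythroid differentiation regulator, gave 5064 and 9336 in wild type and 1098 and 1246 in IL-10-/- cells. Both wild-type arrays were above both knockout arrays, although they differed from each other by more than the knockout arrays did. The difference was -2.51 ± 0.25 (adjusted p from limma 1.75e-06), and with LPS alone it was -2.69 ± 0.25. A further Erdr1 probe set, 98526_r_at, gave -0.37 ± 0.37 and was not called, so the probe sets of this gene disagree. Gdpd3, a phosphodiesterase of lysophospholipid metabolism, gave 796 and 982 in wild type against 173 and 321 in IL-10-/-. The ranges did not overlap, and the difference was -1.70 ± 0.25 (adjusted p from limma 0.00112). In IL-6-/- cells Gdpd3 was higher than in both, at 2123 and 2452.

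3 further genes were lower in IL-10-/- cells with IL-10 by their main probe set. Serpinb2, the plasminogen activator inhibitor that macrophages make after LPS, gave 8654 and 5505 in wild type and 2406 and 2038 in IL-10-/-, a difference of -1.62 ± 0.31 (adjusted p from limma 0.0212). With LPS alone its difference of -1.08 ± 0.31 was not called (adjusted p from limma 0.0609). St3gal5, the sialyltransferase that makes the ganglioside GM3, gave 432 and 306 against 98.4 and 120.1, a difference of -1.38 ± 0.29 (adjusted p from limma 0.0445). Stk11ip, which encodes a binding partner of the kinase Stk11, gave 222 and 288 against 86.9 and 55.8, a difference of -1.33 ± 0.28 (adjusted p from limma 0.0477). None of the 3 had overlapping arrays. The last call by gene, Auh, which encodes an enoyl-CoA hydratase that also binds AU-rich RNA, came from 94787_at, which is not the probe set with the highest mean of that gene and is given here after its values were seen. It read 314 and 347 against 66.8 and 105.3, a difference of -1.50 ± 0.32 (adjusted p from limma 0.0497), and its 2 calls in 11 alternative settings make it one of the least stable.

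**Figure D1:**
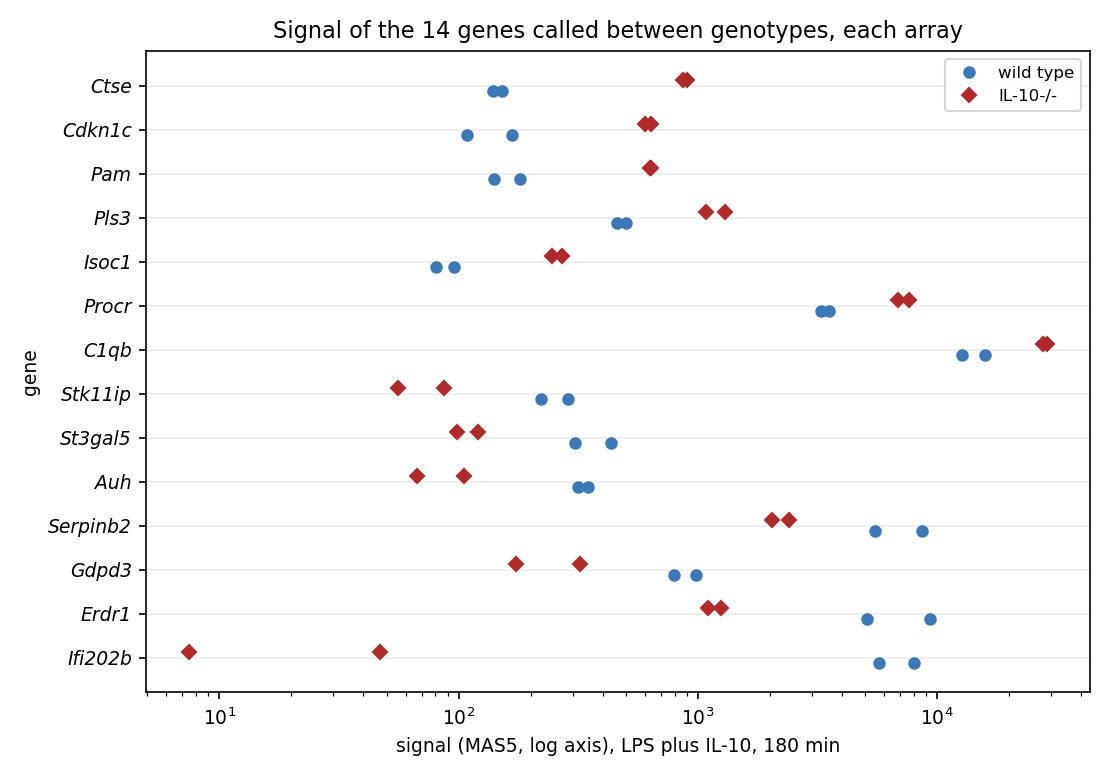
MAS5 signal (log axis) of the 14 genes called between genotypes with LPS plus IL-10 at 180 min; circles are the 2 wild-type arrays and diamonds the 2 IL-10-/- arrays. For each gene the arrays of the genotypes do not overlap, and the widest gap is that of Ifi202b, at 7976 and 5686 against 47 and 7.5; Ctse and Auh are shown by probe sets 104696_at and 94787_at.

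Among the genes that were higher in IL-10-/- cells, Cdkn1c encodes an inhibitor of cyclin-dependent kinases. It gave 109 and 167 in wild type and 635 and 601 in IL-10-/-, with no overlap and a difference of 1.85 ± 0.29 (adjusted p from limma 0.00195). With LPS alone the difference was 1.11 ± 0.29 and was also called. Pam, the enzyme that amidates peptide hormones, gave 140 and 180.1 against 631 and 636, a difference of 1.71 ± 0.30 (adjusted p from limma 0.00794). In IL-6-/- cells it gave 30.5 and 75.8, which was not called against wild type (-1.05, adjusted p from limma 0.187), and these and the wild-type signals were all below 200.

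C1qb, a chain of the complement component C1q and a gene of high expression in macrophages, gave 15870 and 12681 in wild type and 28699 and 27732 in IL-10-/-. The difference of 0.99 ± 0.16 (adjusted p from limma 0.0022) was the smallest among the 18 calls. With LPS alone the signals were 16895 and 14067 against 29086 and 27544. The IL-6-/- cells, at 26538 and 25977, sat near the IL-10-/- level. A further C1qb probe set, 162276_i_at, gave 0.90 ± 0.27 and was not called (adjusted p from limma 0.333). Pls3, an actin-bundling plastin, gave 500.3 and 461 against 1295 and 1081, a difference of 1.22 ± 0.26 (adjusted p from limma 0.0497). Isoc1 gave 80.7 and 95.8 against 270.3 and 245, a difference of 1.15 ± 0.24 (adjusted p from limma 0.0477), while with LPS alone its arrays overlapped and the difference was 0.13 ± 0.24. IL-10 added to LPS changed Isoc1 by -1.39 in wild type (adjusted p from limma 0.00584) and by -0.37 in IL-10-/- (adjusted p from limma 0.771), and the test of the difference between these responses did not pass (1.02 ± 0.34, adjusted p from limma 0.317).

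Ctse, the aspartic protease cathepsin E, lies 9 genes from Il10 in the RefSeq order, and its probe sets disagree. Probe set 104696_at, given after its values were seen because it is not the one with the highest mean, read 139.5 and 152.5 in wild type and 899 and 862 in IL-10-/-. That is a difference of 2.25 ± 0.31 (adjusted p from limma 3.18e-04), and it was 2.34 ± 0.31 with LPS alone. The probe set with the highest mean, 93861_f_at, read 757 and 843 against 949 and 1033, a difference of 0.29 ± 0.31 that was not called, and 93860_i_at gave -0.30 ± 0.38. By its name 93861_f_at is shared by similar transcripts, so its values cannot be tied to Ctse alone. 3 probe sets without a single gene symbol were also higher in IL-10-/- cells: 94224_s_at at 3.43 ± 0.72, 93924_f_at at 1.82 ± 0.37 and 93833_s_at at 1.69 ± 0.36. The first of them gave 2060 and 944 in wild type, 16290 and 14948 in IL-10-/- cells, while IL-6-/- cells gave 14618 and 13959.

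Procr and St3gal5 stood apart from the other called genes, because their genotype difference ran in opposite directions without and with IL-10 and the change itself was called. Procr, the endothelial protein C receptor and one of the genes that IL-10 raises, gave 1393 and 1453 in wild type and 800.3 and 582 in IL-10-/- cells with LPS alone. With IL-10 it gave 3536 and 3279 in wild type and 7587 and 6849 in IL-10-/-. The knockout arrays were thus the lower ones without IL-10 and the higher ones with it. The differences were -1.01 ± 0.21 (adjusted p from limma 0.00533) and 1.07 ± 0.21 (adjusted p from limma 0.0263), and they differed from each other by 2.08 ± 0.30 (adjusted p from limma 2.39e-04). Procr rose with IL-10 by 3.31 in IL-10-/- and by 1.23 in wild type. Its call with IL-10 was lost when any 1 of the 4 arrays was left out, with adjusted p of up to 0.432. St3gal5 moved the other way: with LPS alone it gave 472 and 525 in wild type against 847 and 1020 in IL-10-/-, a difference of 0.84 ± 0.29 that was not called. With IL-10 the difference was the -1.38 given above, a change of -2.22 ± 0.40 (adjusted p from limma 0.00447). IL-10 lowered St3gal5 by -2.63 in IL-10-/- cells, and the change of -0.40 in wild type was not called.

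The stability of the calls was read over alternative settings of the fit and over leaving out each array. The call of Ifi202b held in 13 of 13, and those of 161173_f_at and the Ctse probe set 104696_at in 12 of 12. Erdr1 kept its call in 12 of 13, and lost it in the fit over the 2 groups of the comparison alone (adjusted p from limma 0.0523). Cdkn1c and Gdpd3 kept it in 11 of 13, both losing it in that fit and without IL-10-/- replicate 1. C1qb kept it in 10, Pam in 9, Serpinb2 in 8 and Procr in 7 of 13. Isoc1 and Stk11ip kept it in 5, St3gal5 in 4 and Pls3 in 3 of 13, and none of these 4 kept it when any single array of the comparison was left out. Of the other probe sets without a single symbol, 93924_f_at kept it in 6, 94224_s_at in 4 and 93833_s_at in 3 of 12.

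The same genotype difference could be read in arrays that this comparison does not use. The labels do not say whether the arms of a genotype came from separate mice or cell preparations. A call that recurs across arms is therefore not shown to be independent replication. Of the 18 probe sets, 11 were also called with LPS alone, 61.1% of the 18 and 4.66% of the 236, and 10 of the 11 had the same sign, Procr being the exception. At 45 min, over the mean of the arms with LPS, LPS plus IL-10 and LPS plus IL-6, 106 probe sets were called (1.29%). They included 14 of the 18, all 14 with the same sign, which is 77.8% of the 18 and 13.2% of the 106. The 4 that were not called at 45 min were Isoc1, St3gal5, Auh and 93924_f_at.

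**Figure D2:**
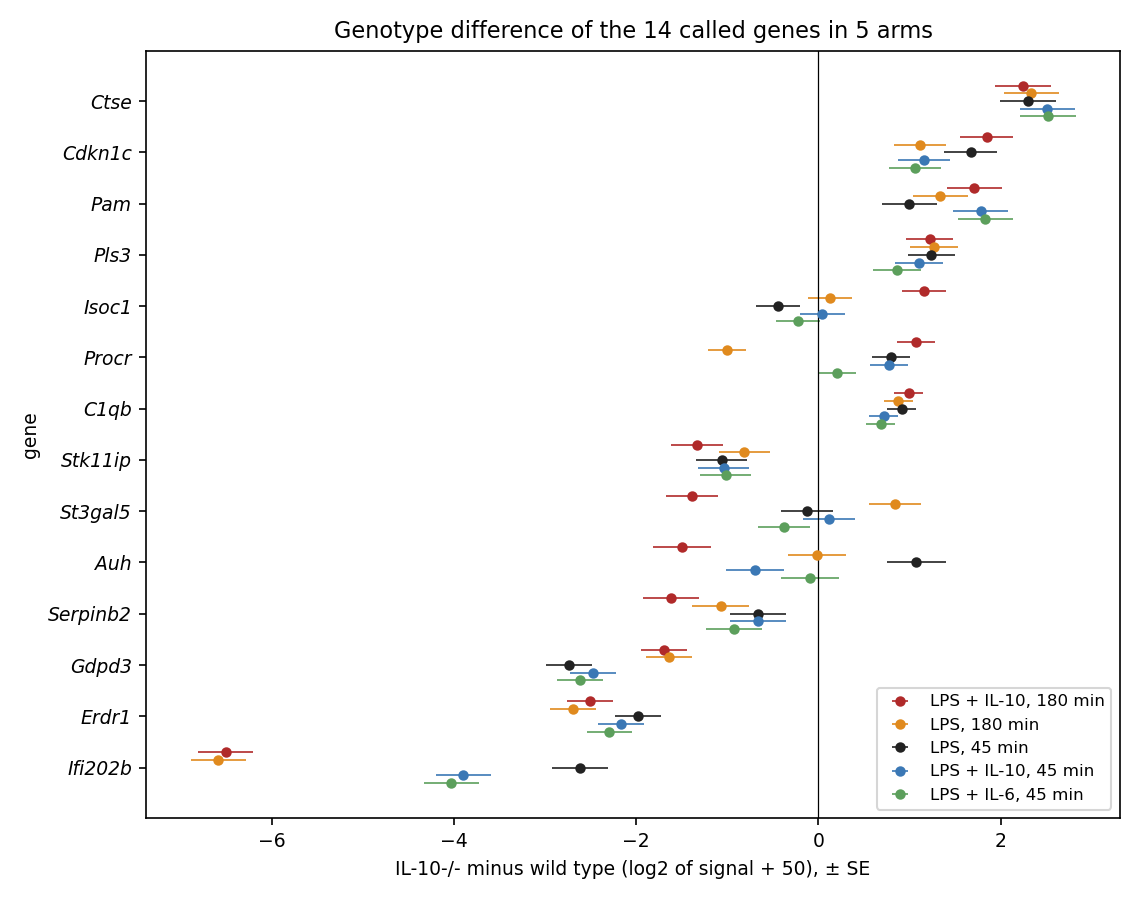
Genotype difference (IL-10-/- minus wild type, log2 of signal plus 50, ± SE) of the 14 called genes in each of the 5 arms that hold both genotypes. Ctse (probe set 104696_at), C1qb, Gdpd3, Erdr1 and Ifi202b lie on the same side of 0 in every arm, while Procr is at -1.01 with LPS alone and 1.07 with LPS plus IL-10 at 180 min.

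Ifi202b differed by -2.62 with LPS, -3.90 with LPS plus IL-10 and -4.03 with LPS plus IL-6 at 45 min, closer to 0 than at 180 min, a contrast that was not tested, but called in each arm. Those arms held 31 (0.377%), 32 (0.389%) and 17 (0.207%) called probe sets. Erdr1 differed by -1.98, -2.17 and -2.29 and Gdpd3 by -2.74, -2.48 and -2.61 in the same arms, again all called. The Ctse probe set 104696_at differed by 2.30, 2.51 and 2.51. Each of these 4 was thus called in all 5 arms, whether or not IL-10 had been added. C1qb differed by 0.91, 0.71 and 0.68, of which the last was not called (adjusted p from limma 0.102). Cdkn1c was called at 45 min with LPS (1.67) but not with IL-10 (1.16, adjusted p from limma 0.111) or IL-6 (1.06, adjusted p from limma 0.294), and Pam was called with IL-10 (1.78) and IL-6 (1.83) but not with LPS (1.00, adjusted p from limma 0.246).

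The IL-6-/- cells given LPS plus IL-10 for 180 min offer a second set of macrophages with a knockout and the same treatment. This comparison uses the same IL-10-/- arrays, so its values are set beside the others and give no separate support. Between IL-10-/- and IL-6-/- cells 21 probe sets were called (0.255%). The differences were -4.97 for Ifi202b, -2.23 for Erdr1, -3.02 for Gdpd3, 2.76 for Pam and 3.13 for the Ctse probe set 104696_at, all called. They were 0.10 for C1qb, -0.05 for Isoc1, 0.45 for Serpinb2, 0.40 for Procr and 0.13 for 94224_s_at, none of them called. Set against the same wild-type arrays, where 15 probe sets were called (0.182%), the IL-6-/- cells were called higher for C1qb by 0.89, for Isoc1 by 1.20 and for Gdpd3 by 1.32, and lower for Serpinb2 by -2.07 and for Ifi202b by -1.53.

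The 236 probe sets called with LPS alone, 11 of which are among the 18 above, were read again in the arrays with IL-10. The 83 that were higher in IL-10-/- cells had a median difference of 1.36 with LPS alone and 0.32 with IL-10, and the 153 that were lower had -1.41 and -0.18. Of the 236, 170 kept the sign of the difference, 195 had less than 50% of its size and 181 had an unadjusted p of at least 0.05 with IL-10. The change of the difference between the conditions was itself called for 46 probe sets (0.559%), 41 of them among the 236, and in 40 of the 46 the difference moved toward 0 with IL-10. Those 236 were chosen for their difference in the LPS arrays, and the same arrays enter the test of the change.

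**Figure D3:**
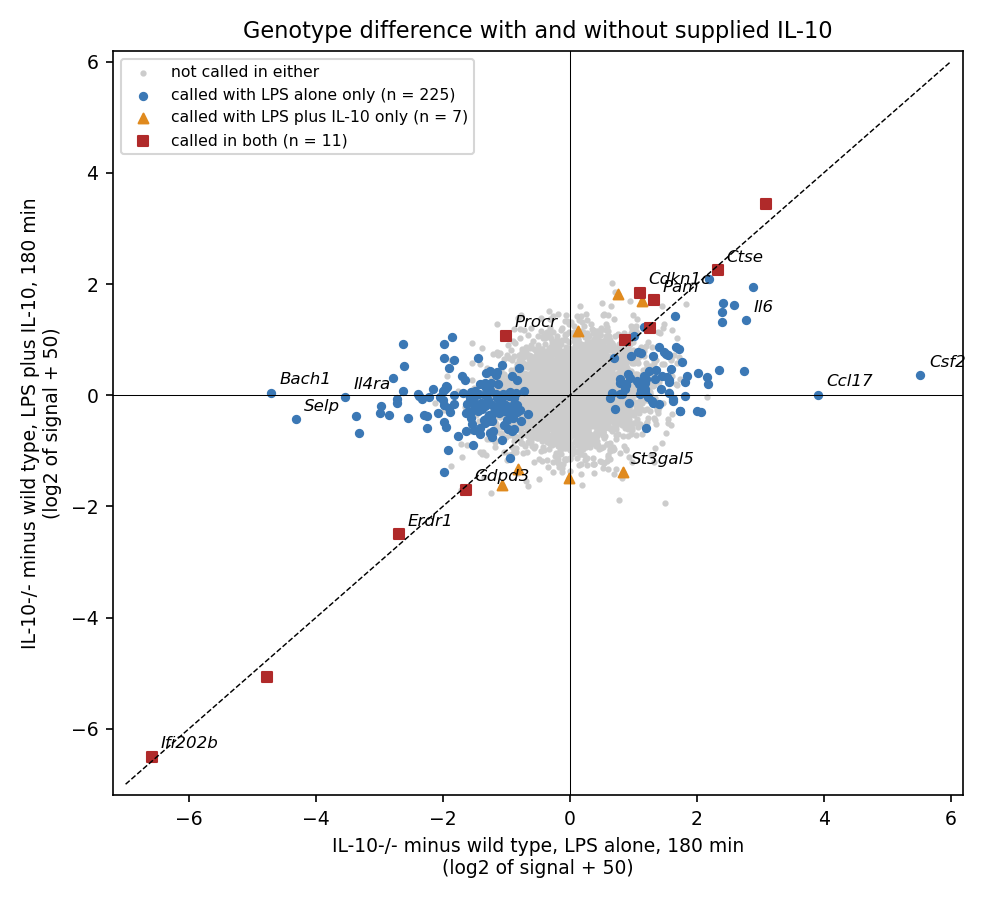
Genotype difference of each of the 8224 tested probe sets with LPS alone (x axis) and with LPS plus IL-10 (y axis) at 180 min, both as log2 of signal plus 50; colours mark the calls, and the dashed line marks equal differences. The 11 probe sets called in both lie along the dashed line apart from Procr, while Bach1, Selp, Il4ra, Csf2 and Ccl17, called with LPS alone, lie near 0 on the y axis.

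Of the genes that IL-10 raises, the transcriptional regulator Bach1 had the lowest difference of the comparison with LPS alone after Ifi202b among the named genes. With LPS alone it gave 8066 and 11541 in wild type and 307 and 334 in IL-10-/-, a difference of -4.71 ± 0.28. With IL-10 it gave 9192 and 10320 against 10453 and 9706, so that the groups overlapped and the difference was 0.05 ± 0.28 (adjusted p from limma 0.998). Selp, the adhesion molecule P-selectin, gave 1552 and 1744 against 39.1 and 31.2 with LPS alone, and 10141 and 11241 against 7233 and 8679 with IL-10. Both genotypes were far higher with IL-10, and the difference went from -4.32 ± 0.32 to -0.43 ± 0.32. Il4ra, the receptor chain for IL-4, gave 13673 and 12978 against 1006 and 1201 with LPS alone. With IL-10 it gave 19239 and 19554 against 19041 and 18895, a difference of -0.03 ± 0.18 in place of -3.54 ± 0.18. A second Il4ra probe set, 161192_at, did not show the difference, with -0.14 for LPS alone (adjusted p from limma 0.947) and -0.29 with IL-10, and a second one for Bach1, 93142_at, gave -1.94 (adjusted p from limma 0.296) and 0.35. By the probe sets with the higher signal, the change was called for Bach1 (4.76 ± 0.39, adjusted p from limma 5.89e-08), Selp (3.89 ± 0.46, adjusted p from limma 1.54e-05) and Il4ra (3.51 ± 0.26, adjusted p from limma 1.17e-08).

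Il1rn, the secreted antagonist of the IL-1 receptor, gave 15694 and 16996 in wild type and 2941 and 3189 in IL-10-/- with LPS alone. With IL-10 it gave 33099 and 34953 against 37013 and 32044, with overlapping groups. Its difference went from -2.40 ± 0.17 to 0.02 ± 0.17. Bcl3, an atypical IkappaB protein, went from -2.30 to -0.36, and the transcription factor gene Stat3, which carries the IL-10 signal, from -1.05 to 0.02. The lysosomal channel gene Mcoln2 went from -3.37 to -0.37, the adaptor gene Gab1 from -2.98 to -0.20 and the ferroxidase gene Cp from -2.85 to -0.36. For all of these the change was called. The other Gab1 probe set, 93902_at, gave -0.37 with LPS alone (adjusted p from limma 0.823) and 0.77 with IL-10, so the probe sets of Gab1 disagree. Batf, an AP-1 family factor, went from -2.99 to -0.33 and Arg2, a mitochondrial arginase, reached 0.09 with IL-10, but their changes of 2.67 and 2.08 were not called (adjusted p from limma 0.07 and 0.186). Socs3, the feedback inhibitor that IL-10 induces, went from -0.97, which was not called (adjusted p from limma 0.0522), to -0.07, while its probe set 162206_f_at went from -1.04, which was called (adjusted p from limma 0.0192), to -0.17.

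Inflammatory genes that were called higher in IL-10-/- cells with LPS alone were not called with IL-10. Csf2, the gene of the cytokine GM-CSF, gave 109 and 84.7 in wild type and 6969 and 6419 in IL-10-/- with LPS alone. With IL-10 it gave 63.6 and 39.7 against 82.9 and 76.8, all below the signal of 200 used for the filter. The difference went from 5.53 ± 0.42 to 0.36 ± 0.42. Ccl17, a chemokine that attracts T cells, gave 46 and 42 against 1306 and 1423 with LPS alone, and 27.2 and 32.5 against 46.9 and 16.8 with IL-10. At these low signals the arrays with IL-10 overlapped, and the difference of 3.91 ± 0.40 became 0.01 ± 0.40. Ccl22, a ligand of the same receptor as Ccl17, went from 2.07 to -0.31, Cxcl9, an interferon-induced chemokine, from 1.21 to -0.59 with both wild-type arrays then the higher ones, and Cav1, the caveolar coat protein, from 2.17 to 0.21. The change was called for all 5 of these genes. A second Cav1 probe set, 97849_at, gave 0.44 with LPS alone (adjusted p from limma 0.837) and 0.49 with IL-10, so it did not show the difference.

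Tnf gave 15153 and 17418 in wild type and 50046 and 46347 in IL-10-/- with LPS alone. With IL-10 it gave 11830 and 14281 against 13627 and 13244, and the arrays overlapped. The difference went from 1.56 ± 0.39, which was called, to 0.05 ± 0.39, and the change of -1.52 ± 0.55 was not called (adjusted p from limma 0.417). Il12b, the shared chain of IL-12 and IL-23, went from 2.01 to -0.29 with a change of -2.30 ± 0.65 (adjusted p from limma 0.14). Il1b, at 0.54 and 0.01, Cxcl10, at 0.89 and 0.35, and Nos2, at -0.31 and 0.01, were called in neither condition.

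**Figure D4:**
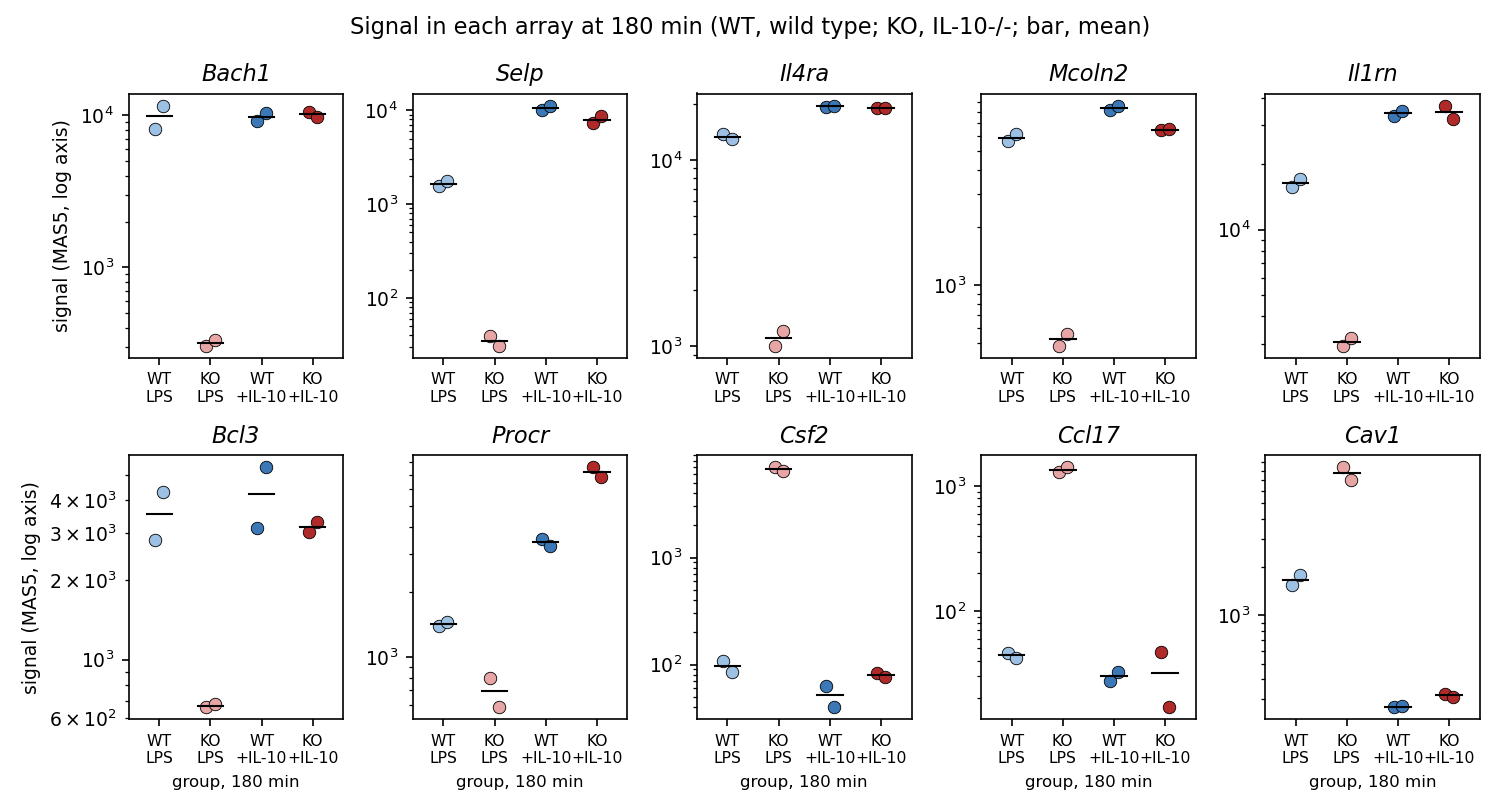
MAS5 signal (log axis) in each array of wild type (WT) and IL-10-/- (KO) cells with LPS alone or with LPS plus IL-10 at 180 min, for 10 genes; points are arrays and bars are means of 2 arrays. In the panels of genes lower in the knockout with LPS alone, such as Bach1 at 307 and 334, and of genes higher there, such as Csf2 at 6969 and 6419, the groups with IL-10 lie closer together than those with LPS alone; in the Procr panel the knockout lies above the wild type with IL-10 at 7587 and 6849.

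Il6 had the largest difference with IL-10 among the 14 tested inflammatory cytokines, though it was not called. With LPS alone it gave 4568 and 2645 in wild type and 26567 and 21767 in IL-10-/-, and with IL-10 it gave 2234 and 995.5 against 4019 and 3762. Both IL-10-/- arrays remained above both wild-type arrays. The difference went from 2.77 ± 0.53 (adjusted p from limma 0.00249) to 1.35 ± 0.53, which was not called (adjusted p from limma 0.624), and the change of -1.42 ± 0.75 was not called either (adjusted p from limma 0.858).

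The supply of IL-10 itself was tested within each genotype. In IL-10-/- cells 291 probe sets were called between LPS plus IL-10 and LPS alone (3.54%), 187 of them higher with IL-10. In wild-type cells 11 were called (0.134%). Among the genes named here, Selp rose by 6.55 in IL-10-/- and by 2.66 in wild type, Il1rn by 3.47 and 1.06 and Procr by 3.31 and 1.23, all called. Cav1 fell by -4.39 and -2.42. Bach1 rose by 4.77 in IL-10-/-, while the wild-type value of 0.01 was not called, and Csf2 fell by -5.70 in IL-10-/-, while the wild-type value of -0.53 was not called. Cxcl9 was the reverse: it rose by 2.37 in wild type and by 0.57 in IL-10-/-, where it was not called.

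The Il10 probe set gave signal in both genotypes. It read 4409 and 4512 in wild type and 4634 and 4698 in IL-10-/- with IL-10, a difference of 0.06 ± 0.26 that was not called. With LPS alone it read 3265 and 2701 against 1532 and 1512, a difference of -0.94 ± 0.26 that was called (adjusted p from limma 0.0464). At 45 min the difference was 1.41 ± 0.15, higher in the knockout and called. Where this probe set lies relative to the deleted part of the gene is not given in the sources used here, so it does not check the genotype. The array's Il10 control probe set, which was left out of the tests, read 3513 and 1906 in wild type and 1564 and 1617 in IL-10-/- with IL-10, and 2347 and 2310 against 1089 and 1035 with LPS alone. Of the receptor genes, Il10ra gave 571 and 702 against 754 and 806, a difference of 0.28 ± 0.24, and Il10rb gave 5107 and 5084 against 4756 and 4276, a difference of -0.17 ± 0.23. Neither was called in either condition.

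Pathway lists were also read by counts. They hold genes already named above and were chosen with earlier results of these data known, so they give no separate support. Of 20 tested STAT3-linked IL-10 targets, 14 were lower and 0 higher in IL-10-/- cells with LPS alone, with a median difference of -1.55. With IL-10, 1 was higher (Procr) and 0 lower, with a median of -0.03, and the change was called for 10. Of 14 inflammatory cytokines, 5 were higher and 2 lower with LPS alone and 0 were called by limma with IL-10 (1 at an unadjusted p under 0.05), with medians of 0.63 and 0.06. Of 18 chemokines, 4 were higher with LPS alone and 0 were called by limma with IL-10 (0 at an unadjusted p under 0.05), with medians of 0.57 and 0.07. Of 37 cytokine receptors and JAK, STAT and SOCS genes, 1 was higher and 6 were lower with LPS alone and 0 were called by limma with IL-10 (0 at an unadjusted p under 0.05), with medians of -0.43 and -0.03. Over all 6070 genes 61 were higher and 125 lower with LPS alone, and the change was called upward for 33 and downward for 9. The medians over all genes were 0.03 with LPS alone and 0.003 with IL-10, where 6 genes were higher and 6 lower by their main probe set and 376 passed at an unadjusted p under 0.05.

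**Figure D5:**
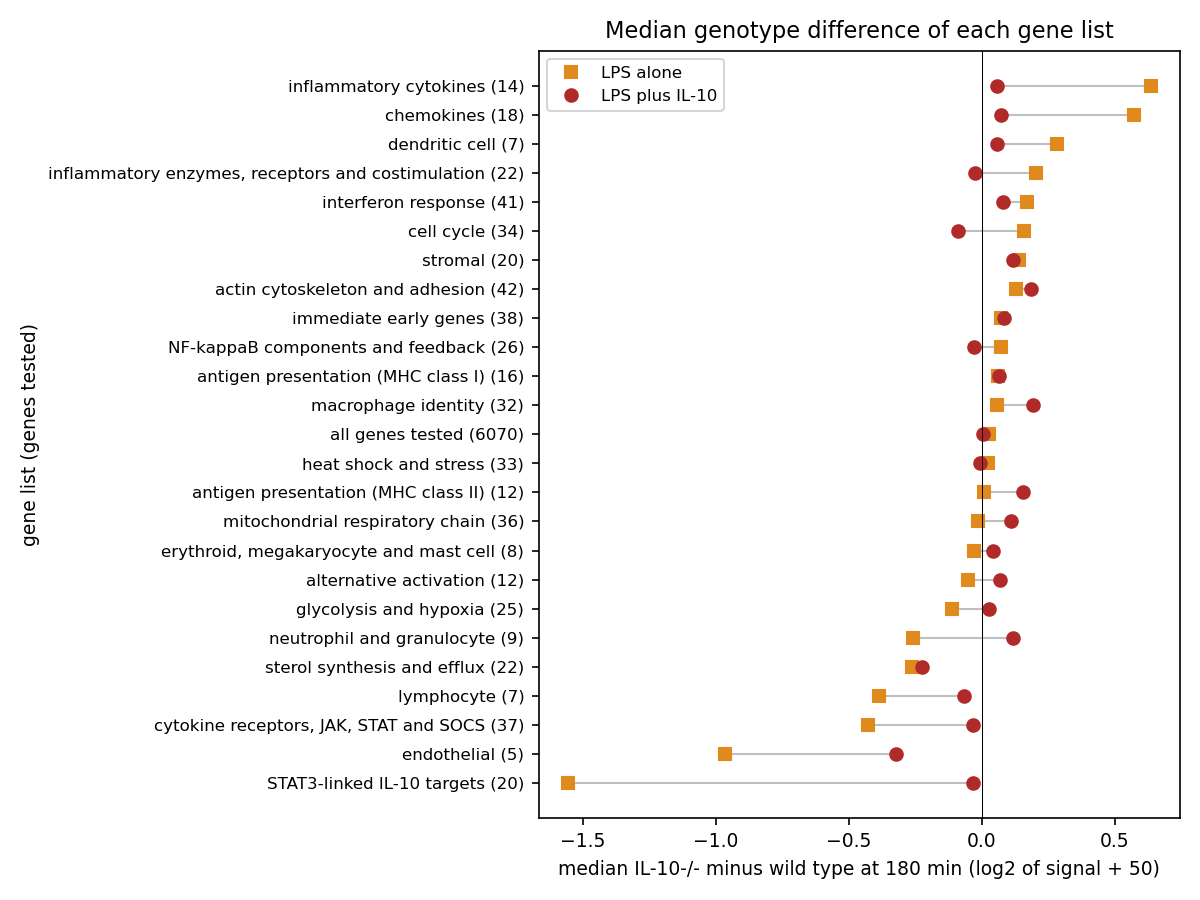
Median genotype difference (IL-10-/- minus wild type, log2 of signal plus 50) at 180 min for each gene list, with the number of genes tested; squares are LPS alone and circles LPS plus IL-10. The STAT3-linked IL-10 targets lie at -1.55 with LPS alone and -0.03 with IL-10, and the median of all 6070 genes is near 0 in both.

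The lists that describe other processes held 2 of the called genes. Of 41 interferon response genes, 1 was lower with IL-10 (Ifi202b), and the median was 0.08. Of 32 macrophage identity genes, 1 was higher with IL-10 (C1qb), with a median of 0.19 against 0.06 with LPS alone. In the remaining lists, 21 of 24 with the cytokine, chemokine and receptor lists included, 0 genes were called with IL-10 by limma, and 0 to 5 genes a list passed at an unadjusted p under 0.05. The 5 were in sterol synthesis and efflux, 5 of 22 genes tested (22.7%), a list with a median of -0.23 with IL-10 and -0.26 with LPS alone. Over all 6070 genes the share was 6.2%, and in the macrophage identity list it was 15.6% (5 of 32). The sterol list is named because its count was the highest of the 21, and its share was not tested. Markers of other cells were counted by each gene's brightest probe set, tested or not. The summed signal of endothelial markers, 4 of 10 tested, was 3399 and 4002 in wild type and 2917 and 2842 in IL-10-/-. Eng (2301 and 2526.5 against 1928 and 1908) made up most of that sum, while Pecam1 was higher in both IL-10-/- arrays (256 and 264 against 299 and 268). The summed signal of neutrophil and granulocyte markers, 8 of 17 tested, was 8382 and 7855 against 7213 and 6737. Lcn2 (3806 and 3998 against 2869.6 and 2986) and Csf3r (2447 and 1733 against 1667 and 1144) made up most of the neutrophil and granulocyte sum, while S100a8 was higher in both IL-10-/- arrays (1157 and 927 against 1500.3 and 1482). The sums of the lymphocyte, stromal, dendritic cell and erythroid, megakaryocyte and mast cell markers overlapped between the genotypes. In the stromal sum Timp1 alone gave 12613 and 19486 in wild type against 15893 and 16972. Of the 23 stromal markers, 7 were higher in both IL-10-/- arrays than in both wild-type arrays. Dcn (361 and 304 against 293.5 and 302) was the 1 that was lower. The others overlapped, Col1a2 (2608 and 3731 against 2693 and 2528) among them. The 7 included Tagln (1071 and 895 against 1648 and 1899), Acta2 (1008 and 869 against 1739 and 1354), Postn (177 and 109 against 381 and 374) and Bgn (2731 and 2569.6 against 3689 and 4321). By the same count, 2 were higher and 5 lower of 10 endothelial markers. It was 1 and 6 of 18 erythroid, megakaryocyte and mast cell markers. For neutrophil and granulocyte markers it was 2 and 3 of 17, and for lymphocyte markers 2 and 3 of 21. The share of all probe sets separated in this way was not counted. These counts are therefore no result about the markers. By limma 0 of the 20 tested genes of the stromal list were called (1 at an unadjusted p under 0.05). Many of these markers are at low signal: 6 of the 10 endothelial and 12 of the 17 neutrophil and granulocyte markers stayed below 200 in all 4 arrays, and Cdh5, the cadherin of endothelial junctions, gave 9.5 to 22.7. Their part in the called differences was not tested.

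The place of the called genes on the chromosomes was described without a test. Il10 lies on mouse chromosome 1, which holds 345 of 5982 tested genes with a known place (5.77%). By main probe sets 11 called genes had a place, and 4 of them (36.4%) were on chromosome 1: Ifi202b, Pam, Serpinb2 and Stk11ip. With LPS alone it was 12 of 185 (6.49%), and at 45 min 9 of 69 (13.0%). These counts leave out called probe sets that are not the main one of a gene or lack a single symbol. Among those called with IL-10, Ctse (104696_at) and the genes named for 161173_f_at and 94224_s_at lie on chromosome 1. Auh (94787_at) and the genes of 93833_s_at lie on chromosome 13, and those of 93924_f_at on chromosome 6. In the RefSeq gene order Serpinb2 lies 65 and Pam 88 genes on one side of Il10, Stk11ip 265 on that side, and Ifi202b 373 on the other. Of the 50 genes within 25 places of Il10, 14 were tested and 0 were called with IL-10 by their main probe set in limma (2 at an unadjusted p under 0.05), with differences from -0.48 to 0.72 and a median of 0.13, the Ctse probe set 104696_at being the call in this stretch.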

How the data were processed

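Mouse bone-marrow-derived macrophages were profiled on 34 Affymetrix MG-U74Av2 arrays; 32 entered 16 groups, and 2 whose title or treatment field left genotype or time unsettled were not used. The deposited intensity values are MAS5 signal, per the submitters' processing notes, scaled by the authors so that the trimmed mean of each array lay between 500.29 and 500.4; aligners and sequencing depth do not apply to arrays, and the number of arrays limits the precision. Of 12488 probe sets, 66 controls were left out. Gene names came from the platform table (10855 probe sets with 1 symbol, 396 with several, 1237 with none); RefSeq GRCm38.p6 gave gene order and promoters. Where a gene had several probe sets, the brightest on average stands for it.

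Signals were taken as log2 after adding 50, and limma 3.58.1 in R 4.3.3 (lmFit, eBayes with trend) fitted 1 mean per group, with 16 residual and 7.575 prior degrees of freedom. Tests are 2-sided, with Benjamini-Hochberg adjustment over 8224 probe sets; the fit was tested on simulated data. Genes named were the largest called differences (up to 12 each way), up to 4 called members of each list, the tested genes within 25 places of Il10, a fixed set of IL-10 pathway genes, and the 10 largest called differences with LPS alone. The genes, lists and the comparison were chosen with earlier results of these data known. Arrays with the same replicate number did not vary together in the main comparison (correlation of replicate differences 0.0538), so the numbers were not used as pairs. Alternatives were other pseudocounts (10, 200), filters (none, 500), quantile normalization, no trend, a replicate block, a fit on the compared groups alone, averaged probe sets and leaving out each array.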

Additional observations from a re-analysis of the deposited data

Results flagged for a closer look

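The genotype difference with IL-10 minus that with LPS alone, tested directly in limma, passed the threshold for 16 of the genes named. Of these, Procr and St3gal5 were also called with IL-10, with the sign opposite in the 2 conditions and changes of 2.08 and -2.22. The difference of St3gal5 with LPS alone was not called. The sign was also opposite for Ccl22, Cxcl9, Bach1, Il1rn and Stat3, whose differences with IL-10 were not called. Among genes that were lower in IL-10-/- cells with LPS alone, the change was 4.76 for Bach1, 3.89 for Selp, 3.51 for Il4ra, 2.99 for Mcoln2, 2.78 for Gab1, 2.48 for Cp, 2.41 for Il1rn, 1.94 for Bcl3 and 1.07 for Stat3. Among genes that were higher there, it was -5.16 for Csf2, -3.90 for Ccl17, -2.37 for Ccl22, -1.97 for Cav1 and -1.80 for Cxcl9. A second Stat3 probe set, 99100_at, gave -0.41 ± 0.22 with IL-10 against 0.02 ± 0.17 for the one used.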

How the results depend on the processing

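The 18 calls with IL-10 became 10 without a filter on low signal, 11 with a replicate block and 7 in a fit over the 2 compared groups alone; 10, 11 and 4 of these were among the 18. Leaving out 1 array at a time gave 4 to 40 calls. The replicate block gave 225 calls with LPS alone, 40 for the change between conditions, 107 at 45 min and 19 against IL-6-/-, so pairing by number moved only the main count by over 1.5 times; the cause was not tested. A pseudocount of 200 gave 72 calls for the change and 32 against IL-6-/-. Fits over the compared groups alone gave 235 calls at 45 min and 40 against IL-6-/-. Leaving out 1 array gave 105 to 164 calls with LPS alone, 28 to 44 for the change, 69 to 87 at 45 min and 11 to 14 against IL-6-/-; fewer arrays enter these fits. No difference of a gene named in the comparison with IL-10 changed sign after being called. With 2 arrays a group, and with signals below 200 near the filter, smaller differences were not detectable.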
